A study of Mus musculus with 8 samples.

Results

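A set of 8 genes, of the 53012 Ensembl genes in the count table, acts in or against the response of the β-cell to glucose, its potassium channel included. They were chosen by symbol: Slc2a2, G6pc2, Abcc8, Kcnj11, Pcx, Trpm5, Ucp2 and Glud1. All 8 were found in the table, and all 8 passed the filter on low counts. The table holds 1 bulk RNA-seq library of isolated islets per mouse, from 4 βIgf1r and 4 βIgf1rKD animals that were 17 months old. Mice of both groups carried loxP sites around exon 3 of both Igf1r alleles. βIgf1rKD mice had the genotype Ins1-CreERT2+/- Igf1r flox/flox and were injected with tamoxifen, 0.075 mg/g body weight, on 5 days in a row, whereas βIgf1r mice were Ins1-CreERT2-/- Igf1r flox/flox and received corn oil. Islet isolation followed 7 days after the final dose. The methods place the inducible Cre under a rat insulin promoter, while the genotype names Ins1, and with either the recombination was aimed at β-cells. Cre and tamoxifen both differed between the groups, so their effects and that of the lost Igf1r cannot be told apart. Each group held both sexes, and the labels do not mark the sex of a mouse.

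Glucose enters the mouse β-cell through the transporter encoded by Slc2a2, is phosphorylated and is burned in glycolysis and in mitochondria. The rise in ATP closes the KATP channel, whose pore is encoded by Kcnj11 and whose regulatory sulfonylurea receptor is encoded by Abcc8, and the depolarized cell takes up calcium and secretes insulin. G6pc2 encodes an islet glucose-6-phosphatase that runs against the first step of glycolysis, and Trpm5 a calcium-activated cation channel that adds to depolarization. Pcx (pyruvate carboxylase) refills the citric acid cycle, Glud1 (glutamate dehydrogenase) feeds glutamate into it, and Ucp2 encodes a carrier of the inner mitochondrial membrane.

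No difference between βIgf1rKD and βIgf1r islets was detected for any of the 8 genes. By edgeR's quasi-likelihood test, 4 had a log2 fold change above 0 and 4 below 0, with a median of -0.015 against 0.0080 over all 15474 genes tested. Of the 8 genes, 0 had an unadjusted p under 0.05, 0 had an adjusted p under 0.05 and in 0 the groups did not overlap. Over all genes tested, 4.12% had an unadjusted p under 0.05 (2.23% higher and 1.89% lower in βIgf1rKD islets), 2.22% did not overlap between the groups, and 0% had an adjusted p under 0.05. By edgeR 637 and 0 genes passed an unadjusted and an adjusted p under 0.05, and by log2 CPM 344 did not overlap. DESeq2 called 8 genes and limma-voom 1 gene at an adjusted p under 0.05, and 701 and 565 at an unadjusted p under 0.05. The lowest adjusted p among the 8 genes was 0.987. The 95% intervals of their 8 fold changes reached from a lowest bound of 0.727 to a highest bound of 1.51.

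The libraries held 21634080 to 42391328 counts. For Igf1r, the targeted gene, means were 53.6 ± 7.21 CPM (βIgf1r) and 50.7 ± 4.996 CPM (βIgf1rKD; SD over 4 mice), and the groups overlapped. Its count covers the whole gene and does not isolate the deleted exon. The islet label held in every library, since Ins2 lay between 90221 and 138537 CPM and Gcg between 11938 and 38220 CPM. Libraries differed in several respects that touch the results. A list of 12 acinar digestive enzyme and acinar transcription factor genes took 1.93% to 14% of the counts in βIgf1r and 4.01% to 16.2% in βIgf1rKD mice, and 12 of the 12 had a log2 fold change above 0, 0 of them at an unadjusted p under 0.05 by edgeR. Genes of the mitochondrial genome took 0.492% in βIgf1r mouse M152 and 0.809% in βIgf1rKD mouse M146, against 2.02% to 3.87% in the others. Xist, the RNA of the inactive X chromosome, was at a log2 CPM of at least 8.08 in 1 βIgf1r and 3 βIgf1rKD mice and at most 2.76 in the others. Of 9 dissociation and stress genes, 7 had a log2 fold change above 0 and 3 an unadjusted p under 0.05, against 4.12% of all genes tested. Their summed levels were 103 to 119 CPM in βIgf1r and 107 to 152.1 CPM in βIgf1rKD mice. The part of these differences in the results was not tested except where a covariate is named. In bulk RNA, fewer cells of a type and less RNA per cell cannot be told apart.

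On GRCm38 with the GENCODE M21 annotation, 4 of the 8 genes lie on chromosome 7, the chromosome of Igf1r. Kcnj11 (ENSMUSG00000096146) spans chr7:46093953-46100764 and Abcc8 (ENSMUSG00000040136) chr7:46104523-46180033, both on the minus strand and separated by 3758 bases. Ucp2 (ENSMUSG00000033685) spans chr7:100493337-100502020 on the plus strand, 6904 bases after its relative Ucp3, and Trpm5 (ENSMUSG00000009246) chr7:143069153-143094642 on the minus strand. The others lie on the plus strand, Slc2a2 (ENSMUSG00000027690) at chr3:28697903-28731359, G6pc2 (ENSMUSG00000005232) at chr2:69211073-69227841, Glud1 (ENSMUSG00000021794) at chr14:34310727-34345265 and Pcx (ENSMUSG00000024892) at chr19:4510472-4621752. Genes annotated on the opposite strand overlap Slc2a2 (1700112D23Rik), Abcc8 (Gm45486), Pcx (Lrfn4), Trpm5 (Tssc4) and Ucp2 (Dnajb13), and Gm45487 overlaps Abcc8 on its own strand. The strand setting of the counting is not given in the sources used here, so a share of such counts could belong to the partner. Glud1 has a processed pseudogene, Glud-ps, that could share reads with it.

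The promoters of 6 of the 8 genes were matched by symbol in RefSeq (GRCm38.p6), and Abcc8 and Kcnj11 were not matched. Levels of Slc2a2 and G6pc2 moved together between mice (Pearson r = 0.679). Those of Pcx and Glud1 moved in opposite directions (r = -0.915), with M146 and M152 highest in Pcx and lowest in Glud1. The 250 bases before the start are shown for Slc2a2, G6pc2, Pcx and Glud1. They come from the plus strand of chr3:28697653-28697902, chr2:69210823-69211072, chr19:4510222-4510471 and chr14:34310477-34310726. Capitals mark matches to 4 short motifs, searched on both strands: the E-box CANNTG, the homeodomain core TAAT or ATTA, the CCAAT box CCAAT or ATTGG, and the GC box GGGCGG or CCGCCC.
Slc2a2: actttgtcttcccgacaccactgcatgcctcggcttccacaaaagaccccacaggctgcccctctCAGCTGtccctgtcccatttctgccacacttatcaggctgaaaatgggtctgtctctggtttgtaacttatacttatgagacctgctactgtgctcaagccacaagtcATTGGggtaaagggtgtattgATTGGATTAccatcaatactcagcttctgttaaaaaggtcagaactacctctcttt
G6pc2: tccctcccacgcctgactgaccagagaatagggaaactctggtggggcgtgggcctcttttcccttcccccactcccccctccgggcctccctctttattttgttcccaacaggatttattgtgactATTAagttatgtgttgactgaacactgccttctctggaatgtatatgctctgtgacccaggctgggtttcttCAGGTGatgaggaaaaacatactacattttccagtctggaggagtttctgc
Pcx: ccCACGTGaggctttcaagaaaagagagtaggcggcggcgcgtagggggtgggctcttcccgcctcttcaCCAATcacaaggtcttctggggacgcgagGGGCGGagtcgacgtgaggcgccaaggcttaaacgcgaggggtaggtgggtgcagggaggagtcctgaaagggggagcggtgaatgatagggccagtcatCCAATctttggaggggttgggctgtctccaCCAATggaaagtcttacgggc
Glud1: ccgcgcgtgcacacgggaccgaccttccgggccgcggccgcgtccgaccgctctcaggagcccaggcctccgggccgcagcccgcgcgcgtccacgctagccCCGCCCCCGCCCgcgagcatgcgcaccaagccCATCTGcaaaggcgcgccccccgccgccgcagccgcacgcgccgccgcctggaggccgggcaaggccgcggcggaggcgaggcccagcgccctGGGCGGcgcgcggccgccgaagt

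RefSeq gives G6pc2 and Pcx a second start each, 8876 and 83847 bases downstream, and the sequences shown are those of the first start. The 4 sequences shown differed in base composition. Slc2a2 and G6pc2 had 47.2% and 50% G and C and a CpG ratio, the CpG count over that given by the base content, of 0.150 and 0.194, while Pcx had 60.8% and 0.750 and Glud1 82.0% and 1.11. The contrast does not hold for the second start of Pcx, whose promoter (chr19:4594069-4594318) had 58.0% G and C and a CpG ratio of 0.197, while that of the second start of G6pc2 (chr2:69219699-69219948) had 46.0% and 0.379. Over 32851 mouse promoters of the same length the median was 52.4% G and C and a CpG ratio of 0.374. In the sequences shown, the TAAT core occurred 1 time each in Slc2a2 and G6pc2 and 0 times in Pcx and Glud1. It is held by 54.9% of all promoters. The promoters of the second starts held 3 TAAT cores and 4 E-boxes in G6pc2, 1 TAAT core and 2 E-boxes in Pcx, and 0 CCAAT and 0 GC boxes in either. The E-box, held by 66.2% of all promoters, occurred 1 time in each of the 4 sequences shown. GC boxes, held by 32.7%, were found 3 times in Glud1 and 1 time in Pcx, and CCAAT boxes, held by 33.9%, 3 times in Pcx and 2 times in Slc2a2. The capitals ATTGGATTA in Slc2a2 are a CCAAT box followed directly by a TAAT core, and CCGCCCCCGCCC in Glud1 are 2 adjoining GC boxes, both without overlap. Of the matched promoters not shown, that of Trpm5 had 52.8% G and C, a CpG ratio of 0.230, 1 TAAT core and 0 E-boxes. That of Ucp2 had 63.6% G and C, a CpG ratio of 0.634, 0 TAAT cores and 2 E-boxes. A match shows only that the letters are present. Whether the promoter sequences go with the levels between mice was not tested.

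Levels were compared between genes as CPM per kb of the principal transcript, since a longer transcript yields more fragments. G6pc2 was highest, at 698.4 ± 131.3 CPM per kb (SD, n = 8 mice), and lay above the next gene in 8 of 8 mice. Abcc8 followed at 112 ± 7.15 CPM per kb and Slc2a2 at 100.4 ± 13.8 CPM per kb, and Abcc8 lay above Slc2a2 in 7 of 8 mice. Ucp2, Trpm5 and Pcx, at 41.6 ± 2.55, 38.7 ± 4.50 and 36.7 ± 5.71 CPM per kb, lay within each other's spread. Glud1 was at 29.4 ± 1.54 CPM per kb and Kcnj11 lowest at 23.9 ± 2.50 CPM per kb. With this length, the pore subunit of the KATP channel had 0.213 of the RNA level per kb of its regulatory subunit. That ratio also rests on the length used, since with merged exons Kcnj11 was at 20.4 and Abcc8 at 67.8 CPM per kb. With merged exons as the length, Slc2a2 stood above Abcc8 in 8 of 8 mice and Ucp2 came after Pcx and Trpm5, so the order of these genes rests on the length used. G6pc2 was first and Kcnj11 last with both lengths.

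**Figure D1:**
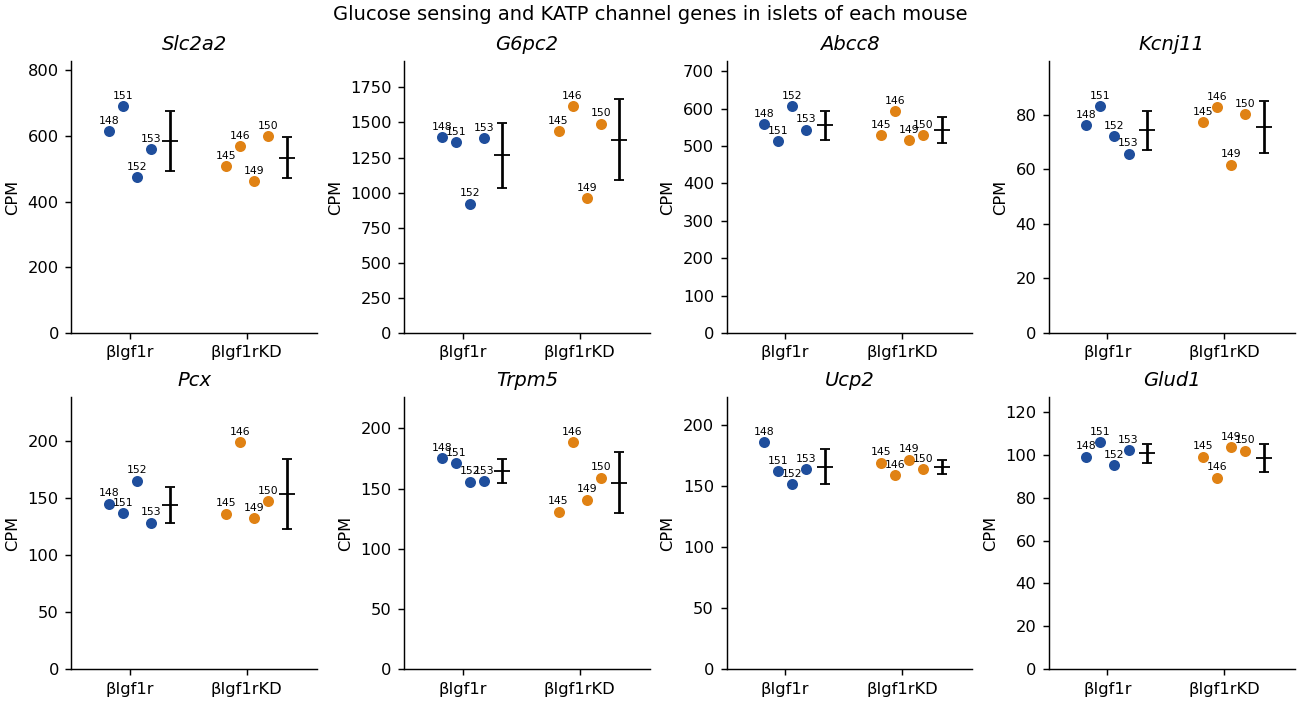
Level of each of the 8 genes (CPM, vertical axes from 0) in each mouse, with the mouse number beside each point. The black mark and bars give the mean and SD of the 4 mice. The groups overlap in all 8 panels, and the low points of G6pc2 are βIgf1r mouse M152 at 922 CPM and βIgf1rKD mouse M149 at 958 CPM.

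Glucose entry was examined first. Slc2a2 was at 614, 689.9, 474 and 559.9 CPM in βIgf1r mice M148, M151, M152 and M153, and at 508, 568, 461 and 598 CPM in βIgf1rKD mice M145, M146, M149 and M150. The groups overlapped, with M151 highest and M149 lowest of all mice. The group means were 584 ± 90.8 and 534 ± 61.2 CPM (SD, n = 4 each), a log2 fold change of -0.13 (standard error 0.15, 95% interval -0.46 to 0.20). Relative to Slc2a1, the glucose transporter of most other tissues, Slc2a2 had a log2 ratio of 5.57 ± 0.25 in βIgf1r and 5.51 ± 0.45 in βIgf1rKD mice (SD, n = 4 each). The difference of -0.060 was within the spread between mice (two-sided exact permutation p = 0.8286, and 0.8286 with adjustment for the 6 ratios compared).

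G6pc2, which removes the phosphate from glucose-6-phosphate, was at 1396, 1357, 922 and 1390.5 CPM in the βIgf1r mice and at 1441, 1615, 958 and 1491 CPM in the βIgf1rKD mice, in the same order of mice. Each group held 1 low mouse, M152 and M149, while the other 3 lay at 1357 to 1396 CPM in βIgf1r and 1441 to 1615 CPM in βIgf1rKD mice. The means were 1267 ± 230.3 and 1376 ± 288 CPM (SD, n = 4 each), and the log2 fold change of 0.12 (standard error 0.21, 95% interval -0.35 to 0.59) had the widest interval of the 8 genes. M152 and M149 were also the libraries with the largest acinar share of their groups, at 14% and 16.2%. However, βIgf1rKD mouse M145 had a share of 13.4% with G6pc2 at 1441 CPM. Across the 8 mice, G6pc2 and the acinar marker score described below had r = -0.519 (exact permutation p = 0.191, adjusted p = 0.543) and rho = -0.286. Beyond this and the fit with that score as a covariate, the part of acinar RNA in the low values was not tested. Left out, M152 moved the log2 fold change to -0.0055 and M149 to 0.26. The ratio to G6pc3, the broadly expressed relative, differed by 0.21 on the log2 scale, by 0.092 without M152 and by 0.44 without M149 (two-sided exact permutation p = 0.486, and 0.789 with adjustment for the 6 ratios).

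The KATP channel subunits followed. Abcc8 was at 558, 513, 606 and 544 CPM in βIgf1r and at 529.8, 593, 515 and 529 CPM in βIgf1rKD mice. The highest mouse of each group was M152 and M146, and the others lay within a narrow band. Means were 555 ± 38.8 and 542 ± 34.9 CPM (SD, n = 4 each), a log2 fold change of -0.035 (standard error 0.11, 95% interval -0.28 to 0.21). Kcnj11 was at 76.2, 83.2, 72.1 and 65.8 CPM in βIgf1r and at 77.3, 82.9, 61.8 and 80.4 CPM in βIgf1rKD mice. The lowest of all was M149 and the highest M151, so each group spanned nearly the whole range. Means were 74.3 ± 7.27 and 75.6 ± 9.48 CPM (SD, n = 4 each), a log2 fold change of 0.025 (standard error 0.11, 95% interval -0.22 to 0.27).

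The log2 ratio of Kcnj11 to Abcc8 within a library was -2.90 ± 0.21 in βIgf1r and -2.85 ± 0.15 in βIgf1rKD mice (SD, n = 4 each). The balance of the subunits' RNAs did not differ detectably (difference 0.055; two-sided exact permutation p = 0.657, and 0.789 with adjustment for the 6 ratios). The genes are neighbours whose proteins form 1 channel, and their levels had a Pearson r of 0.144 across the 8 mice.

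Trpm5, the channel that adds to depolarization, was at 175, 171, 156 and 156 CPM in βIgf1r and at 131, 188, 141 and 159 CPM in βIgf1rKD mice. The βIgf1rKD mice held both the lowest value, M145, and the highest, M146. The means were 165 ± 10.01 and 155 ± 25.3 CPM (SD, n = 4 each), a log2 fold change of -0.089 (standard error 0.12, 95% interval -0.36 to 0.18). Relative to its close relative Trpm4 the difference was -0.16 on the log2 scale (two-sided exact permutation p = 0.314, and 0.789 with adjustment for the 6 ratios).

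Of the mitochondrial genes, Pcx was at 145.4, 137, 166 and 129 CPM in βIgf1r and at 137, 199, 133 and 147.6 CPM in βIgf1rKD mice. M146 stood highest, followed by M152. Its means of 144 ± 15.8 and 154 ± 30.7 CPM (SD, n = 4 each) gave a log2 fold change of 0.095 (standard error 0.14, 95% interval -0.22 to 0.41), which became -0.054 without M146. Glud1 was the least variable of the 8 genes, at 99.3, 106, 95.4 and 102 CPM in βIgf1r and at 99.3, 89.4, 104 and 102 CPM in βIgf1rKD mice. Here M146 and M152 were the lowest. The log2 fold change was -0.031 (standard error 0.075, 95% interval -0.20 to 0.14), with means of 100.8 ± 4.47 and 98.6 ± 6.38 CPM (SD, n = 4 each). The log2 ratio of Pcx to Glud1 differed by 0.11 between the groups (two-sided exact permutation p = 0.657, and 0.789 with adjustment for the 6 ratios) and by -0.063 without M146.

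Ucp2 was at 186, 163, 151.5 and 164 CPM in βIgf1r and at 169, 159, 172 and 164 CPM in βIgf1rKD mice. The βIgf1rKD mice lay inside the range of the βIgf1r mice, with M148 above and M152 below them. The means were both 166 CPM, with SDs of 14.4 and 5.74 (n = 4 each), and the log2 fold change was 0.0010 (standard error 0.087, 95% interval -0.19 to 0.20). Against Slc25a5, the adenine nucleotide carrier of the same membrane, it differed by -0.056 on the log2 scale (two-sided exact permutation p = 0.571, and 0.789 with adjustment for the 6 ratios). Its chromosomal neighbour Ucp3 was nearly silent, at 0 CPM in 3 βIgf1rKD mice and at most 0.0799 CPM in any mouse.

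**Figure D2:**
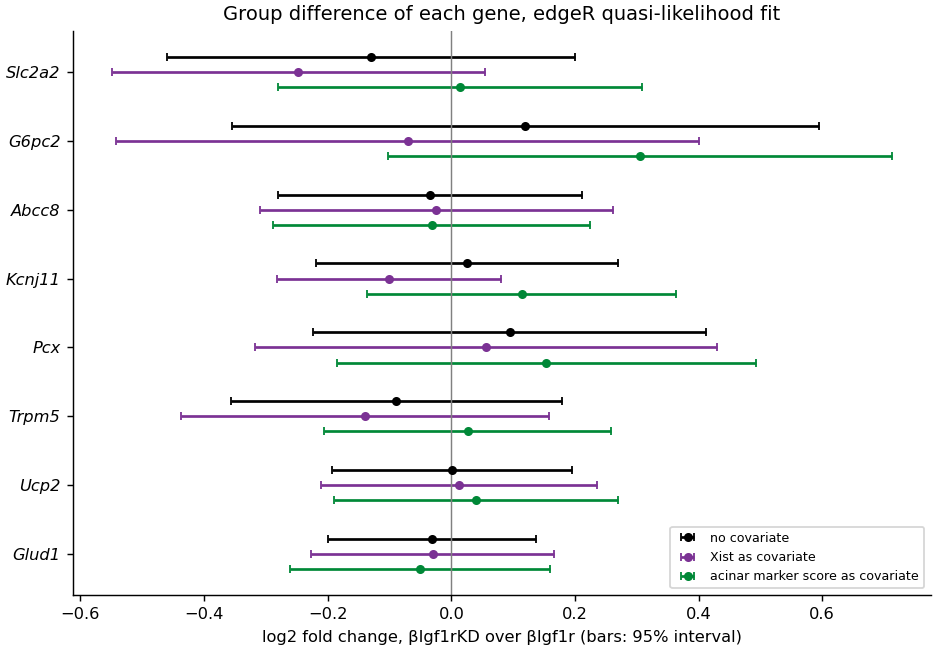
Log2 fold change of βIgf1rKD over βIgf1r for the 8 genes, with 95% intervals, fitted without a covariate (black), with Xist (purple) and with the acinar marker score (green). Every interval includes 0. The black points lie between -0.13 for Slc2a2 and 0.12 for G6pc2, and G6pc2 moves most between the fits, from -0.071 with Xist to 0.31 with the acinar score.

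Since acinar RNA and Xist were unequal between the groups, both were used as covariates. With the acinar score, the mean z-score of the 12 acinar genes, the log2 fold change of Slc2a2 became 0.014 and that of Trpm5 0.027, both from below 0, and that of G6pc2 0.31 (95% interval -0.10 to 0.71). With Xist, Kcnj11 became -0.10 (95% interval -0.28 to 0.080), G6pc2 -0.071 and Slc2a2 -0.25 (95% interval -0.55 to 0.054). None of the 8 genes passed an adjusted p under 0.05 with either covariate, by edgeR's quasi-likelihood test. Each gene was also set against the mean log2 CPM of 9 β-cell markers in the same mouse. The differences then lay between -0.013 for Slc2a2 and 0.22 for G6pc2, the lowest p was 0.143, for Pcx (exact two-sided permutation tests), and the groups overlapped for all 8 genes. Of these markers, Ins1 was at 31089 to 50373 CPM in βIgf1r and 19119 to 28541 CPM in βIgf1rKD mice, which raises the relative values of the βIgf1rKD mice.

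The spread between mice had an order of its own. The coefficient of variation over the 8 mice was 5.25% for Glud1, 6.12% for Ucp2 and 6.36% for Abcc8, below the first quartile of 7.43% over the 2649 genes tested with a mean of 50 to 2000 CPM. It was 10.5% for Kcnj11 and 11.6% for Trpm5, near the median of 10.05%. It was 13.7% for Slc2a2, at the upper quartile of 13.7%, and above it with 15.6% for Pcx and 18.8% for G6pc2.

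Levels of the 8 genes were also compared pair by pair. Among Slc2a2, G6pc2, Kcnj11 and Trpm5, Pearson's r of log2 CPM lay between 0.409 (G6pc2 and Trpm5) and 0.679 (Slc2a2 and G6pc2), over 8 mice, where the genes of a mouse share its library and depth. These genes did not form a closed group, since r was 0.607 for Pcx and Trpm5, 0.495 for Kcnj11 and Pcx and 0.435 for Abcc8 and Trpm5. The highest r of all pairs was 0.796, for Abcc8 and Pcx, and both ran against Glud1, with r = -0.868 for Abcc8 and -0.915 for Pcx. These values describe the 8 libraries and were not tested.

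Each of the 8 genes was correlated with 3 marker scores, which made 24 relations, and 0 of the 24 had an adjusted p under 0.05 by Pearson's r or Spearman's rho. The lowest p-values were those of Slc2a2 and Trpm5 with the acinar score and of Kcnj11 with the α-cell score. For Slc2a2 and the acinar score, Pearson's r was -0.800 (exact permutation p = 0.0204, adjusted p = 0.188) and Spearman's rho -0.881 (exact permutation p = 0.00724, adjusted p = 0.0579), and r was -0.680 without M148 and M151, the mice farthest from the median. For Trpm5 and the same score, r was -0.834 (exact permutation p = 0.00915, adjusted p = 0.188), rho -0.881 (exact permutation p = 0.00724, adjusted p = 0.0579), and r without those mice -0.899. With the α-cell score, from 6 genes that include Gcg, Kcnj11 had r = 0.788 (exact permutation p = 0.0235, adjusted p = 0.188), rho = 0.905 (exact permutation p = 0.00456, adjusted p = 0.0579), and r = 0.897 without M151 and M150. The α-cell score was highest in M151 and M150, 1 mouse of each group, at 1.61 and 1.004. With the β-cell score the closest was Trpm5, r = 0.654 (exact permutation p = 0.0844, adjusted p = 0.405), with rho = 0.524 (exact permutation p = 0.197, adjusted p = 0.674) and r = 0.655 without M153 and M146. The β-cell score includes Ins1, which was lower in every βIgf1rKD mouse than in any βIgf1r mouse. The part of Ins1 in these relations was not tested.

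**Figure D3:**
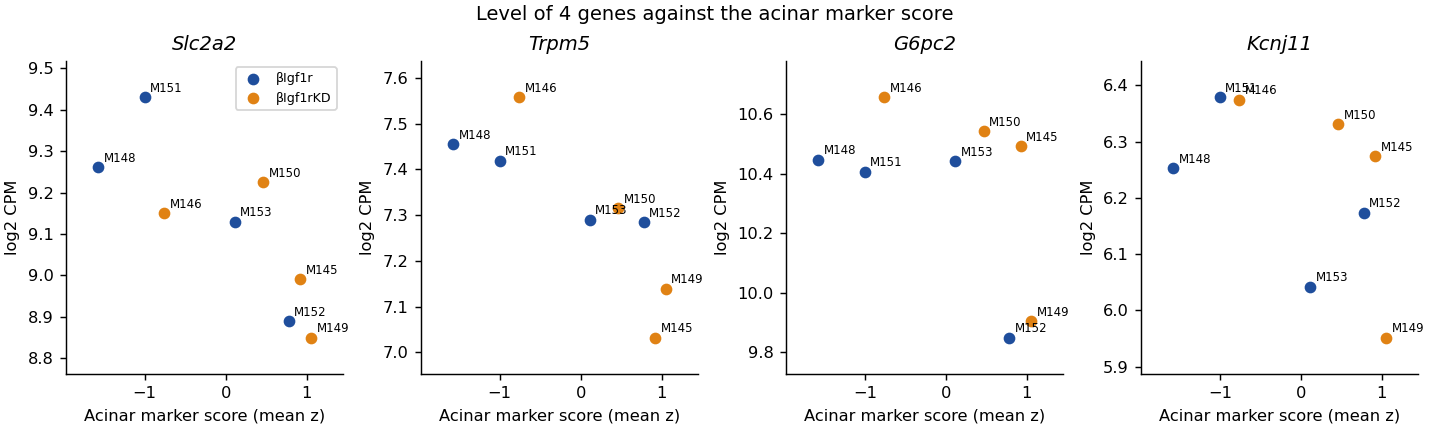
Log2 CPM of Slc2a2, Trpm5, G6pc2 and Kcnj11 (vertical axes) against the acinar marker score (mean z-score of 12 genes, horizontal axes), 1 point per mouse, βIgf1r blue and βIgf1rKD orange. Slc2a2 and Trpm5 are lower where the score is higher, with r = -0.800 and -0.834 over the 8 mice.

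Abcc8, Pcx, Glud1 and Ucp2 were set against the share of mitochondrial RNA, a relation chosen after seeing the data. M152 and M146, the libraries with 0.492% and 0.809% of their counts on mitochondrial genes, had the highest Abcc8 and Pcx and the lowest Glud1 and Ucp2 of their groups and, but for the order among them, of all 8 mice. Across the mice, the log2 mitochondrial share had r = -0.806 with Abcc8 (rho = -0.476), -0.734 with Pcx (rho = -0.310), 0.730 with Glud1 (rho = 0.381) and 0.766 with Ucp2 (rho = 0.619). The exact permutation p for r was 0.0274, 0.0451, 0.0441 and 0.0232, and for rho 0.243, 0.462, 0.360 and 0.115. Adjusted over the 8 genes, each p for r was 0.0901 and the lowest for rho was 0.460 (exact permutation tests). Without M152 and M146, r became 0.530 for Abcc8, 0.522 for Pcx, -0.252 for Glud1 and 0.458 for Ucp2. So 3 of the 4 relations changed sign and rest on those mice, of which each group holds 1. That of Ucp2 weakened but kept its sign. Of all 8 genes, Slc2a2 had the highest rho, 0.6905 (exact permutation p = 0.0694, adjusted p = 0.460). Its r was 0.53, and 0.78 without M152 and M146. Without both mice the log2 fold changes were -0.036 for Abcc8, 0.019 for Pcx, -0.012 for Glud1 and -0.020 for Ucp2. That of Trpm5 was -0.22 (95% interval -0.46 to 0.015) and that of Slc2a2 -0.25 (95% interval -0.58 to 0.086).

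**Figure D4:**
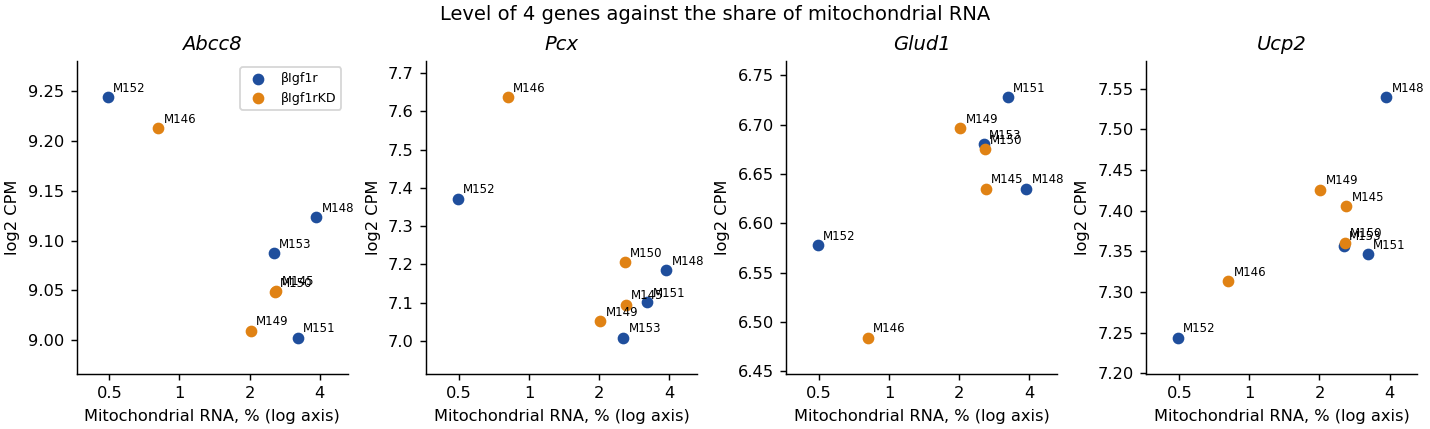
Log2 CPM of Abcc8, Pcx, Glud1 and Ucp2 (vertical axes) against the percent of counts on mitochondrial genes (horizontal log axes), 1 point per mouse, βIgf1r blue and βIgf1rKD orange. M152 at 0.492% and M146 at 0.809% lie apart from the other 6 mice, with high Abcc8 and Pcx and low Glud1 and Ucp2.

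For each of the 8 genes, the 2 genes with the most similar pattern of log2 CPM over the 8 mice were found among 8664 genes with a mean of at least 10 CPM. For Slc2a2 they were Snapc1 (r = 0.987) and Ptpra (r = 0.957), and for G6pc2 Maneal (r = 0.966) and Sh3gl2 (r = 0.963). Abcc8 was closest to Slc38a10 (r = 0.986) and Zfp12 (r = 0.967), and Kcnj11 to Uvrag (r = 0.978) and Cds1 (r = 0.966). Pcx was closest to Flywch1 (r = 0.993) and Usp20 (r = 0.986), and Glud1 to Alcam (r = 0.986) and Cd2ap (r = 0.964). The nearest genes of Trpm5 were Sall2 (r = 0.933) and Hspa2 (r = 0.923), and those of Ucp2 were Zfp612 (r = 0.927) and Ptbp1 (r = 0.916). These are the highest values among 8664 candidates, and 0 of the 16 nearest genes was another of the 8.

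Further, 6 lists held 113 other genes of the same pathways, of which 108 could be tested. Of these, 46 had a log2 fold change above 0 and 62 below 0, with a median of -0.033. An unadjusted p under 0.05 was found for 6 genes, or 5.56% against 4.12% of all genes tested, and 3 genes, or 2.78% against 2.22%, did not overlap between the groups. By edgeR's quasi-likelihood test with adjustment, 0 of the 108 passed, and DESeq2 and limma-voom also called 0.

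Hexose transport and phosphorylation held 4 of the 6 genes, all higher in βIgf1rKD islets, among 14 tested with a median log2 fold change of -0.031. Over all genes tested, 2.23% were higher at an unadjusted p under 0.05. Adpgk, an ADP-dependent glucokinase of the endoplasmic reticulum, was at 13.3, 12.3, 13.9 and 13.4 CPM in βIgf1r and at 15.3, 18.4, 16.1 and 14.6 CPM in βIgf1rKD mice, without overlap, with log2 fold change 0.28 ± 0.097 (standard error) and adjusted p = 0.987 by edgeR. The remaining 3 were at low levels. The hexokinase gene Hk2 was at 0.974 ± 0.270 and 1.57 ± 0.324 CPM, the hexokinase domain gene Hkdc1 at 0.422 ± 0.284 and 1.57 ± 1.59 CPM, and Slc37a2, a glucose-6-phosphate transporter relative, at 0.731 ± 0.233 and 1.48 ± 0.808 CPM (SD, n = 4 each). Hkdc1 was highest in M149 and M145, at 3.74 and 1.78 CPM, the βIgf1rKD libraries with the largest acinar shares, 16.2% and 13.4%. It was at 0.819 CPM in βIgf1r mouse M152, with a share of 14%, and at 0.296 CPM in βIgf1rKD mouse M150, with 10.7%. The part of acinar RNA in Hkdc1 was not tested. Slc37a1 had the largest negative log2 fold change among genes of at least 10 CPM, -0.15.

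Among 40 genes of pyruvate, malate and glutamate metabolism the median log2 fold change was -0.021, and 1 gene, Me3 (a mitochondrial malic enzyme), passed an unadjusted p under 0.05. It was at 4.10, 2.73, 2.99 and 3.98 CPM in βIgf1r and at 2.57, 1.78, 2.70 and 2.56 CPM in βIgf1rKD mice, without overlap, with log2 fold change -0.52 ± 0.21 (standard error) and adjusted p = 0.987 by edgeR. The cytosolic malic enzyme Me1 differed by 0.19 ± 0.13 on the log2 scale (standard error) and Pdk3, a kinase that inhibits pyruvate dehydrogenase, by -0.18 ± 0.11.

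Of the 10 paralogs and partners of the KATP channel, 7 had a log2 fold change below 0 and the median was -0.087, or -0.036 without M151. Kcnj8, the pore subunit of the vascular form of the channel, was at 1.78, 2.76, 1.78 and 2.18 CPM in βIgf1r and at 1.31, 1.61, 1.52 and 1.46 CPM in βIgf1rKD mice. The βIgf1rKD mice lay below every βIgf1r mouse, with log2 fold change -0.52 ± 0.22 (standard error) and adjusted p = 0.987 by edgeR. The counts behind it were 28 to 76 per library. All 9 of 9 endothelial markers had a log2 fold change below 0, 5 of them at an unadjusted p under 0.05. Over all genes tested, 1.89% were lower at that p by edgeR. The summed level of the 9 markers was 511 to 641 CPM in βIgf1r and 464 to 508 CPM in βIgf1rKD mice. The 6 stellate and pericyte markers, with 3 above and 3 below 0, summed to 190.4 to 208 and 107 to 347 CPM. None of these markers was at 0, and their part in Kcnj8 was not tested. Ckb, a creatine kinase, had a log2 fold change of -0.18.

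In the remaining 3 lists 0 genes had an unadjusted p under 0.05 by edgeR, of 22 other channels and pumps, 7 uncoupling and nucleotide carriers and 15 transcription factors tested, with medians of -0.098, 0.0083 and -0.038. Kcnk16, a background potassium channel of islets, averaged 344 ± 38.6 CPM (βIgf1r) and 293 ± 36.3 CPM (βIgf1rKD; SD, n = 4 each), a log2 fold change of -0.23 (standard error 0.13, 95% interval -0.51 to 0.051). Lrrc8a, a subunit of the volume-regulated anion channel, had a log2 fold change of 0.071. Slc25a14 and Atpif1, the inhibitor of the mitochondrial ATP synthase, had 0.088 and -0.094. Mafa, an activator of β-cell genes, was at 485.0 ± 134.8 and 625 ± 250.2 CPM (SD, n = 4 each), a log2 fold change of 0.37 (standard error 0.30), and Isl1, a transcription factor of islet cells, had -0.14.

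**Figure D5:**
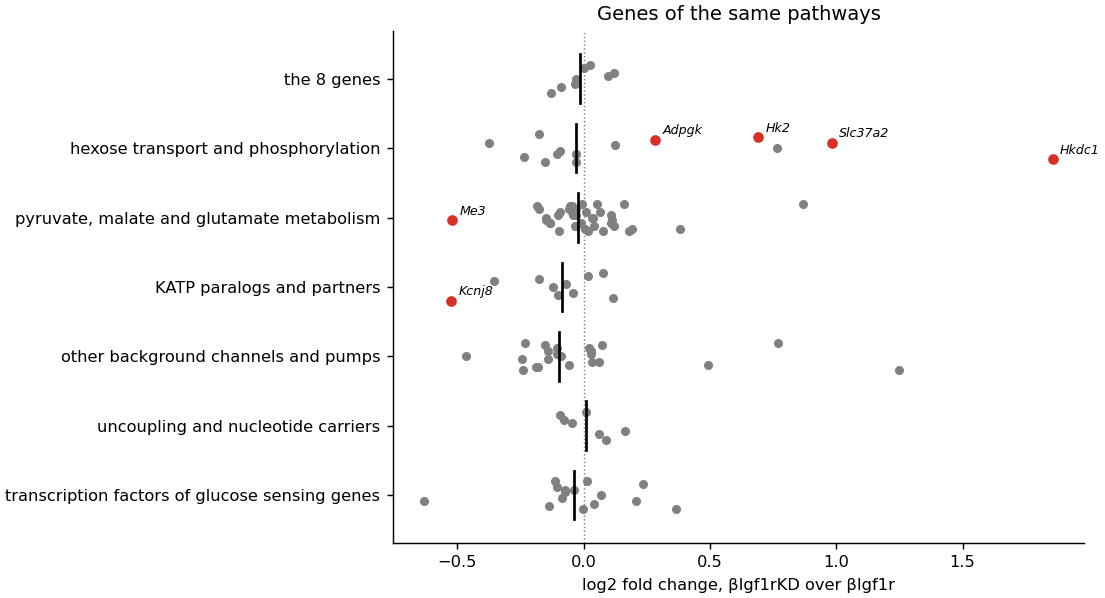
Log2 fold change of βIgf1rKD over βIgf1r for the 8 genes and the 108 tested genes of 6 related lists, 1 point per gene. Red points and names mark an unadjusted p under 0.05 and black lines the median of a list. The 8 genes lie between -0.13 and 0.12, and the 6 red genes are Adpgk, Hk2, Slc37a2, Hkdc1, Me3 and Kcnj8.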

How the data were processed

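Total RNA of islets of 8 mice was sequenced from stranded mRNA libraries. Deposited by the authors was 1 table of estimated counts, not normalized, with 53012 Ensembl genes in 8 columns, of whose values 13.4% were not whole. The submitters' processing notes name fastp, kallisto and the build GRCm38, and the annotation release and strand setting are not given in the sources used here. Groups were taken from the labels. Counts were rounded, and 51906 identifiers were matched to a symbol. edgeR 4.0.16 in R 4.3.3 kept 15474 genes (minimum count 10), scaled them by TMM and compared the groups by its quasi-likelihood test with Benjamini-Hochberg adjustment over all genes. CPM and log2 CPM (prior count 2) use TMM factors. Standard errors and 95% intervals were derived from each gene's F statistic and fold change. Ratios and correlations were tested by exact permutation in Python 3.11.15 with scipy 1.17.1; the smallest p of 4 against 4 mice, over 70 assignments, is 0.0286. Mice of a group were separate animals, and no library was a copy of another of its group (chi-square per degree of freedom at least 78.4).

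The genes and lists were chosen with earlier results of these data known. Genes named were the 8 genes, their ratio partners, the 2 nearest in pattern, and in each list those at an unadjusted p under 0.05 and, at a mean of at least 10 CPM, the largest log2 fold change in each direction, of which 1 is not reported here. The alternatives tried included DESeq2 1.42.0, RLE scaling, limma-voom (limma 3.58.1), other filters, covariates, other library sizes and each mouse left out. Fits with the mitochondrial share, with Xist and the acinar score together, and without M146 and M152 were chosen after seeing the data. The edgeR fit was tested on simulated counts. At an adjusted p under 0.05 it recovered 8.21% of the genes changed 1.5-fold and 55.6% of those changed 2-fold. The changed genes were drawn at random from genes with a mean of at least 10 counts. Among genes like those drawn, a true change of such a size could therefore go undetected. The rates are not specific to the 8 genes, which had 1389 to 60459 counts per library. For these, the 95% intervals reached from 0.727 to 1.51 in fold change, and a change inside its interval could go undetected. Plots were drawn with matplotlib 3.10.9.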

Additional observations from a re-analysis of the deposited data

Results flagged for a closer look

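In 34 sets of 4 mice, which were the 8 genes, the 6 ratios and the 3 marker scores in both groups, 2 held a mouse that stood apart from its group. By chance alone about 1 in 20 sets would, or 1.7. In the βIgf1r group, M152 had a G6pc2 level of 9.85 (log2 CPM) where the remaining mice had 10.41 to 10.45, a gap of 0.933 of the group's range. In the βIgf1rKD group, the log2 ratio of G6pc2 to G6pc3 in M149 was 4.81 against 5.70 to 5.86, a gap of 0.845 of the range. M152 and M149 had the largest acinar share of their groups, 14% and 16.2%. In βIgf1rKD mouse M145 that share was 13.4%, with a G6pc2 level of 10.49 (log2 CPM) and a log2 ratio to G6pc3 of 5.705. The part of acinar RNA in these 2 flagged values was not tested.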

How the results depend on the processing

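No paired analysis was possible because the groups share no mouse number. Of the 160 recomputed fold changes of the 8 genes 26 changed sign and 134 did not, and 0 passed an adjusted p under 0.05. Those that changed sign were Ucp2 with DESeq2 (-0.00043), without the filter on low counts (-0.00069) and without M146 and M152 (-0.020); G6pc2 with Xist (-0.071) and without M146 and M152 (-0.091); Kcnj11 with Xist (-0.10), with Xist and the acinar score (-0.054) and without M146 and M152 (-0.037). Slc2a2 and Trpm5 changed sign with the acinar score (0.014 and 0.027) and Trpm5 with Xist and the acinar score (0.039), and relative to the β-cell markers Abcc8, Trpm5 and Glud1 did (0.077, 0.010 and 0.079). Leaving out each mouse in turn, the log2 fold change ranged from -0.0055 to 0.26 for G6pc2, -0.082 to 0.0097 for Abcc8, -0.032 to 0.11 for Kcnj11, -0.054 to 0.17 for Pcx, -0.041 to 0.060 for Ucp2 and -0.057 to 0.012 for Glud1, and the log2 ratio difference from -0.0010 to 0.15 for Kcnj11 to Abcc8, -0.22 to 0.13 for Slc2a2 to Slc2a1, -0.063 to 0.21 for Pcx to Glud1, 0.092 to 0.44 for G6pc2 to G6pc3, -0.24 to -0.072 for Trpm5 to Trpm4 and -0.13 to -0.0079 for Ucp2 to Slc25a5. Slc2a2 kept its direction, from -0.22 to -0.041, and Trpm5, from -0.20 to -0.016. With 3 mice against 4 the smallest exact p is 0.0571.

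Genes with an adjusted p under 0.05 numbered 0 with edgeR, 8 with DESeq2, 1 with limma-voom and 3 without M146 and M152. At an unadjusted p under 0.05 there were 637, but 1098 without the filter, 1143 with Xist, 378 with the acinar score and 1212 without M146 and M152, and from 383 (without M148) to 1114 (without M152) with 1 mouse left out. Of the pathway genes 6 passed unadjusted, but 11 with Xist, 3 with the acinar score, 12 without M146 and M152, and 2 (without M153 or M145) to 9 (without M146) with 1 mouse left out. With 1 mouse left out, list medians of the log2 fold change ranged from -0.083 (without M146) to 0.036 (without M148) for hexose transport and phosphorylation, -0.036 to -0.0098 for pyruvate, malate and glutamate metabolism, -0.097 to -0.036 for KATP paralogs and partners, -0.12 to -0.044 for other channels and pumps, -0.051 (without M151) to 0.045 (without M150) for carriers and -0.066 to 0.0063 for transcription factors. Covariates also changed the sign of some medians. With Xist they were 0.017 for the pyruvate list and 0.021 for transcription factors. With the acinar score they were 0.034 for the hexose list and -0.0092 for carriers. With both covariates the hexose, pyruvate and transcription factor medians were 0.090, 0.052 and 0.033. Without M146 and M152 that of carriers was -0.060. The medians of KATP paralogs and of other channels stayed below 0 in every fit. The causes were not tested. Without the 2 mice farthest from the median score, 4 of 24 correlations changed sign: Kcnj11 with the β-cell score to 0.0284, Abcc8 and Glud1 with the α-cell score to 0.435 and -0.704, and Ucp2 with the acinar score to 0.358.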

Other observations

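Kcnj11 levels were set beside Xist RNA after the values had been seen, with no test. In the 4 libraries with Xist at a log2 CPM of at least 8.08, which are M151, M145, M146 and M150, Kcnj11 lay between 77.3 and 83.2 CPM. In the other 4, with Xist at most 2.76, it lay between 61.8 and 76.2 CPM. The remaining 7 genes overlapped, among them G6pc2, at 1357 to 1615 CPM in the former and 922 to 1396 CPM in the latter. The share of all genes tested that did not overlap in this split was not counted. Whether the narrow separation of Kcnj11 is unusual therefore cannot be told. Of the 4 libraries with Xist, 3 are βIgf1rKD and 1 is βIgf1r, and M151 and M150 are also the libraries with the highest α-cell score.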
